A study of Mus musculus with 8 samples.

Results

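The genes described here make cholesterol and fatty acids or control their synthesis. They are 30 genes chosen by annotation: enzymes on the route from acetyl-CoA to cholesterol, the SREBP transcription factors with their partners, and the main enzymes of fatty acid synthesis. The list itself was drawn up with results of these arrays known, and which measured values led to it is not recorded, so counts over the list are given as a description. Of the 18194 genes named on the array, 29 of the 30 had a probe set that names them alone, and Acat2 had none. These 29 genes were read by 67 of 45101 probe sets, of which 51 passed the intensity filter (a mean above that of the median probe set, an intensity of 11.9), and every one of the 29 kept at least 1. Values below are deposited intensities on a linear scale, in the order of the replicate numbers given next, and differences are on the log2 scale. Intensities are compared between arrays, not between genes.

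The arrays measured total RNA of Peyer's patches, which are clusters of lymphoid follicles in the gut wall, from 8 C3H/HeJ mice, an inbred strain with a defective Tlr4. Female OVA mice (replicates 2 and 12, n = 2) and male OVA mice (replicates 1, 5, 8 and 13, n = 4) were given ovalbumin, the main protein of egg white and a common model allergen, by gavage at 40 mg/kg each day for 28 days from 6 weeks of age. The female control (replicate 7) and the male control (replicate 8), 1 mouse each, received saline over the same time. The labels call the OVA mice allergic but give no measure of allergy. Xist lay at 457 to 657 in females and 3.14 to 4.06 in males, as the labels of sex require. Of the tissue markers, 11 of 12 B cell genes, 13 of 14 enterocyte genes and 2 of 10 neuron and glia genes passed the filter, although the extraction text of the labels speaks of parietal cortex. The beta-actin 3' to 5' ratio lay between 1.29 and 1.58 on all arrays.

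Cholesterol is built from acetyl-CoA in a long chain of reactions. The early, mevalonate part makes isoprenoid units, and the later part joins them into squalene and folds that into sterols. When sterols in the endoplasmic reticulum run low, SCAP carries the SREBP proteins to the Golgi, where they are cleaved, and the freed part enters the nucleus and switches on the synthesis genes. INSIG proteins hold SCAP back when sterols are plentiful. SREBP2, from Srebf2, acts mostly on sterol genes, and SREBP1, from Srebf1, mostly on fatty acid genes. In the small intestine, cholesterol is both absorbed from food and made in the epithelium, and dividing lymphocytes also make it for their membranes.

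SREBP proteins act on promoters together with NF-Y, which binds CCAAT boxes. RefSeq promoters of build GRCm38.p6, running from 250 bases before to 50 bases after the start, were on hand for 24 of the 30 genes. Those below belong to the 4 genes in which OVA mice of the 2 sexes departed from their controls most unequally for their spread (Mvd, Hmgcs1, Mvk and Cyp51), to Srebf2, which codes for the SREBP that acts on them, and, as a contrast, to Ebp, a sterol gene that did not follow them. They lie at chr8:122443373-122443672 on the minus strand (Mvd), chr13:119690101-119690400 on the plus strand (Hmgcs1), chr5:114444019-114444318 on the plus strand (Mvk), chr5:4104648-4104947 on the minus strand (Cyp51), chr15:82147019-82147318 on the plus strand (Srebf2) and chrX:8193463-8193762 on the minus strand (Ebp). Each is written 5′ to 3′ along the gene, and capitals mark CCAAT or its reverse complement ATTGG and the sterol regulatory element TCACCCCAC.
Mvd: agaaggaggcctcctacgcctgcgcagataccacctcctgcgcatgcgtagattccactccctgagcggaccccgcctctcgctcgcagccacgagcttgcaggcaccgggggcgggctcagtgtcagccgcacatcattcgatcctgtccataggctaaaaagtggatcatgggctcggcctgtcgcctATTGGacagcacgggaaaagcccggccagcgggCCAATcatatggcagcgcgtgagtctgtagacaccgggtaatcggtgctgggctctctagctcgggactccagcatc
Hmgcs1: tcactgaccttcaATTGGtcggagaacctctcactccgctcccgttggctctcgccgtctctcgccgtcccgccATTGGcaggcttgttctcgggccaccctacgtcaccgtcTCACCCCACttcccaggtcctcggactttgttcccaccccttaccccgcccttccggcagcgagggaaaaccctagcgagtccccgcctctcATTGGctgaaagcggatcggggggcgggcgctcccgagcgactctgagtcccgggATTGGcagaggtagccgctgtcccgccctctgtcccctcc
Mvk: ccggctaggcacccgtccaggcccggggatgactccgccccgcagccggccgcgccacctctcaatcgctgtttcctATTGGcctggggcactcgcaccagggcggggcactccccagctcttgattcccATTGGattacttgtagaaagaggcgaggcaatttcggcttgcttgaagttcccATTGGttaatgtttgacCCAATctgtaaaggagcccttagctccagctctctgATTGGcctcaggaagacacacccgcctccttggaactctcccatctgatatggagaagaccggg
Cyp51: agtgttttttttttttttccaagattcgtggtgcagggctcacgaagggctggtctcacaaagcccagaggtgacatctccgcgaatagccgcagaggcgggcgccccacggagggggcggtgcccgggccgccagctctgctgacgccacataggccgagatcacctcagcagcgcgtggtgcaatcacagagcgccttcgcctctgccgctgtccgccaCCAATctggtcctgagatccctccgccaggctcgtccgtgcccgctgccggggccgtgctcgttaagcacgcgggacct
Srebf2: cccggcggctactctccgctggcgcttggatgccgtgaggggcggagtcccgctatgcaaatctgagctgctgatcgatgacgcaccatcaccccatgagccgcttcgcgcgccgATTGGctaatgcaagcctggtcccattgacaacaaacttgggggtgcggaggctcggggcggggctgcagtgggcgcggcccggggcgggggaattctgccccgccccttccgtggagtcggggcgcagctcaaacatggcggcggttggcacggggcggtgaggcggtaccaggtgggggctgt
Ebp: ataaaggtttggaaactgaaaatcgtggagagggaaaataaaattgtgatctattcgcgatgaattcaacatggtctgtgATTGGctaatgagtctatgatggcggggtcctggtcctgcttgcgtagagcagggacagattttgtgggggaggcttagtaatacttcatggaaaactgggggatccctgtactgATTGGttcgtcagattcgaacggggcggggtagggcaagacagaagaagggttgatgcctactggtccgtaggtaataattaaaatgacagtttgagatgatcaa

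All 6 promoters held a CCAAT box. Among them the Hmgcs1 promoter alone held the sterol regulatory element in the spelling TCACCCCAC, at position -137 from the start. Only the spellings TCACCCCAC and TCACNCCAC were searched, so sterol elements spelled otherwise would be missed. Counting a gene where any of its promoters held the motif, 83.3% of the 24 genes held CCAAT or ATTGG, against 41.1% of the 27025 genes of the table. The GC box GGGCGG, searched on both strands, was in 83.3% of them against 38.2% of all genes, and the E-box CACGTG in 20.8% against 8.09%. The sterol element TCACCCCAC was in 4.17% of them, which is Hmgcs1 alone, against 0.614% of all genes, and allowing any base in the fifth place (TCACNCCAC) gave 4.17% against 1.44%. The last 2 motifs overlap by construction, and the E-box reads the same on both strands. Ebp held 2 CCAAT boxes, as did Mvd.

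Most genes of cholesterol synthesis lay on opposite sides of the control in the 2 sexes. Of the 17 measured sterol enzymes, 16 were higher in female OVA mice than in the female control, where 56.2% of all genes were, and 17 were lower in male OVA mice than in the male control, where 51.3% of all genes were higher. Hmgcs1, Mvd, Fdft1, Sqle and Cyp51 were each at least 1.5 log2 units more positive in the female OVA effect than in the male one. No gene passed the test after adjustment over all probe sets, and each sex had 1 control mouse.

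**Figure D1:**
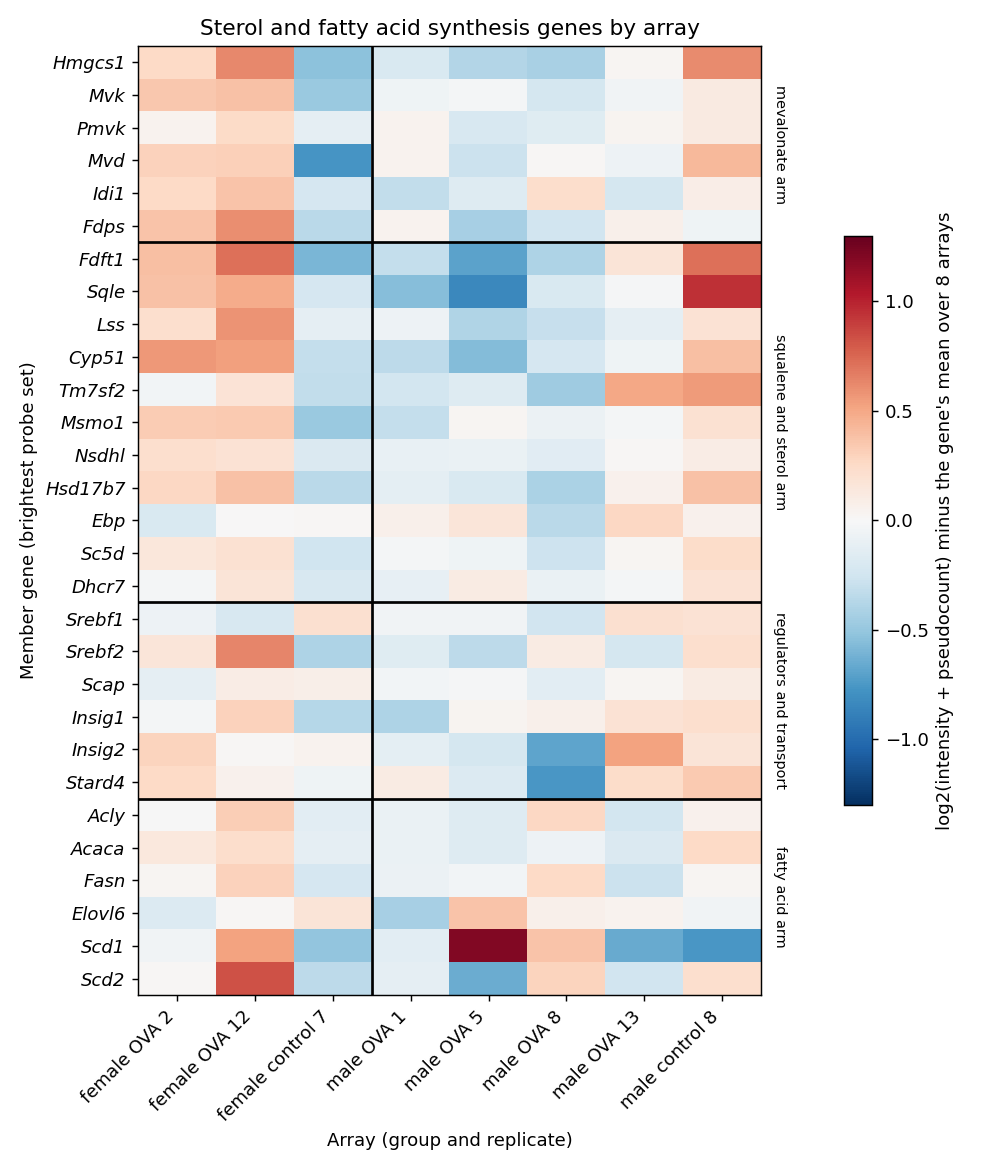
Level of each measured gene (rows, by role) on each of the 8 arrays (columns), as log2 intensity minus that gene's mean over the arrays, with red above and blue below the mean. Most sterol genes are red in female OVA 2, female OVA 12 and male control 8, and blue in female control 7 and male OVA 1, 5 and 8, while Ebp, Srebf1, Elovl6 and Scd1 are not.

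Hmgcs1, the enzyme that makes HMG-CoA at the head of the mevalonate part, read 768 and 991.0 in female OVA mice and 442 in the female control. In males it read 558, 492, 476 and 654 in OVA mice and 985 in the control. The female control was thus the lowest of the 8 arrays, and the male control stood with the female OVA mice. Mvk, which phosphorylates mevalonate, read 63.4 and 64.8 in female OVA mice against 33.4 in the female control. It read 46.8, 47.7, 41.0 and 46.9 in male OVA mice against 53.3 in the male control, so the male difference was small. Mvd, which makes isopentenyl pyrophosphate by decarboxylation, read 66.9 and 67.5 in female OVA mice against 29.3 in the female control. In male OVA mice it read 55.3, 43.2, 54.1 and 50.7 against 73.3 in the male control. For these 3 genes the female OVA mice and the male control lay above all the other arrays, as in 2.6% of all genes.

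The rest of the mevalonate part followed less closely. Idi1, which interconverts the isoprene units, read 248 and 267 in female OVA mice against 176 in the female control, and 164, 183, 243 and 175 in male OVA mice against 219 in the male control. Male OVA 8 thus lay above the male control. Fdps, which builds farnesyl pyrophosphate, read 324 and 382 in female OVA mice against 195 in the female control, and 258, 184, 209 and 262 in male OVA mice against 240.0 in the male control. Its male OVA mice lay on both sides of the control. Pmvk, which adds the next phosphate after Mvk, read 112 and 129 in female OVA mice against 99.5 in the female control, and 92.7 to 111 in male OVA mice against 118 in the male control.

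**Figure D2:**
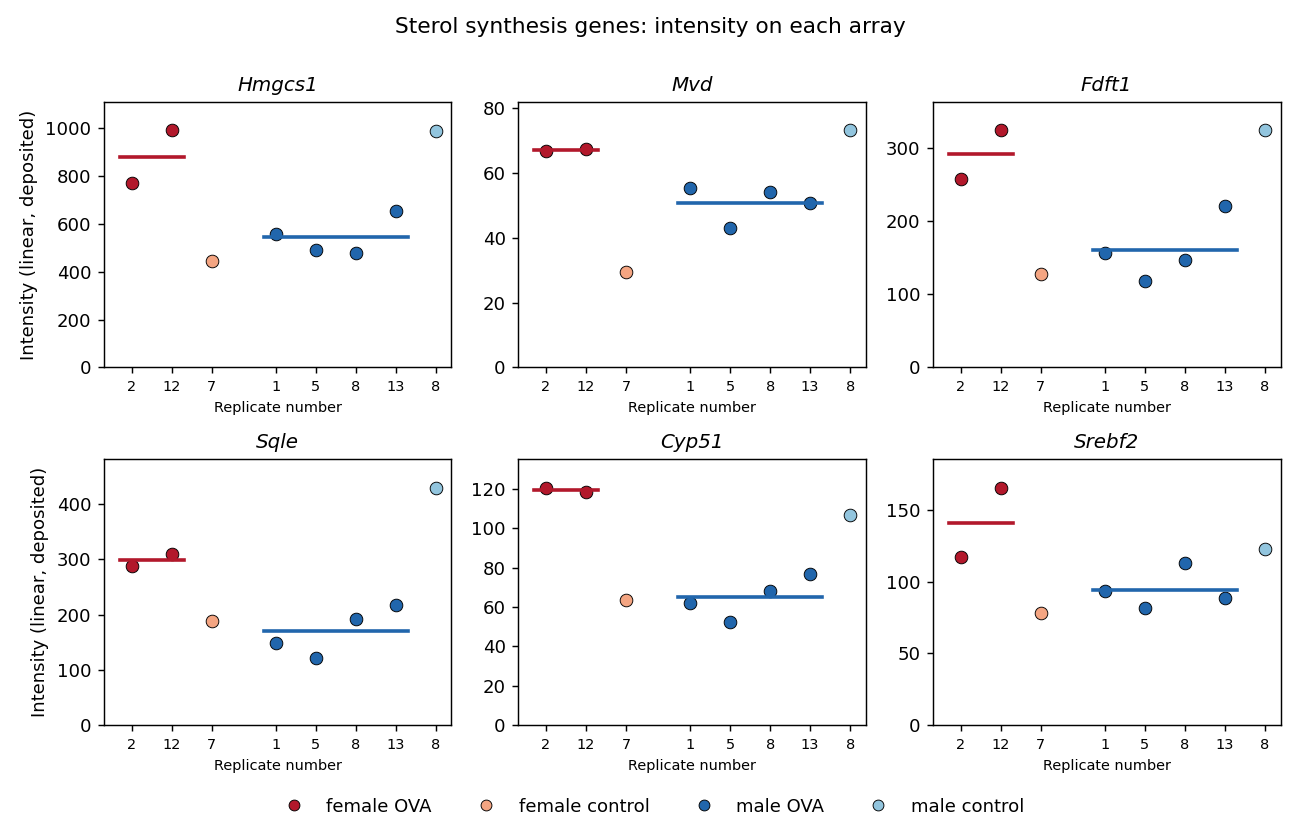
Deposited intensity (linear axis from 0) of 6 genes on each array, by group and replicate number, with a bar at the mean of the OVA mice of each sex. For all 6 both female OVA points lie above the female control and all male OVA points lie below the male control, for Hmgcs1 at 768 and 991.0 against 442 in females and at 476 to 654 against 985 in males.

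Fdft1, squalene synthase, which commits isoprenoids to sterols, was the furthest apart between the sexes. It read 258 and 325 in female OVA mice against 128 in the female control, and 157, 119, 146 and 221 in male OVA mice against 325 in the male control. Sqle, which oxidises squalene and is a control point of the pathway, read 288 and 310.4 in female OVA mice against 189 in the female control. In male OVA mice Sqle read 149, 121, 192 and 218, against 430.1 in the male control, the highest of the 8 arrays. Cyp51, which demethylates lanosterol, read 121 and 118 in female OVA mice against 63.7 in the female control. It read 62.2, 52.5, 68.3 and 76.6 in male OVA mice against 107 in the male control. In each of these genes both female OVA mice lay above the single female control and all male OVA mice below the single male control. Of all genes, 7.78% had this order.

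Msmo1, a methyl sterol oxidase, read 382 and 384 in female OVA mice against 216 in the female control, and 243, 308, 288 and 297 in male OVA mice against 348 in the male control. Hsd17b7, a sterol reductase of the same branch, read 278 and 299 in female OVA mice against 179 in the female control, and 208, 199, 171 and 239 in male OVA mice against 300.0 in the male control. In both, the female OVA mice lay above and the male OVA mice below the single control of their sex. Lss, which folds squalene epoxide into lanosterol, read 113 and 147 in female OVA mice against 88.8 in the female control, and 72.3 to 91.7 in male OVA mice against 110.3 in the male control. Nsdhl, Sc5d, Tm7sf2 and Dhcr7, which act later on the sterol ring, had the same order within each sex, Nsdhl with 229.7 and 224 in female OVA mice against 173 in the female control and 177 to 199.5 in male OVA mice against 211 in the male control. Ebp, the sterol isomerase, read 537 and 618 in female OVA mice against 623 in the female control, and 646, 688, 483 and 747 in male OVA mice against 640.4 in the male control. Both female OVA mice thus lay below the female control, and the male OVA mice lay on both sides of theirs. Ebp and Nsdhl both lie on the X chromosome, and Nsdhl went with the other genes.

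The contrast of the sexes, called the crossed difference here, is OVA minus control in females less OVA minus control in males, on the log2 scale in limma. It was positive in 25 of 29 genes, against 55.7% of all 11988 genes tested, and its median was 0.75, against 0.05 for all genes. An unadjusted p under 0.05 was found for 15 of 29 on the positive side, against 4.18% of all genes, and for 0 on the negative side, against 2.91%. After Benjamini-Hochberg adjustment 0 of 29 passed, as did 0% of all genes, with a smallest adjusted p of 0.485 in limma. Fdft1 stood at 2.17 ± 0.44 (SE), Sqle at 1.99 ± 0.43, Hmgcs1 at 1.83 ± 0.32, Mvd at 1.57 ± 0.23, Cyp51 at 1.55 ± 0.28, Hsd17b7 at 1.23 ± 0.27, Msmo1 at 1.11 ± 0.23 and Mvk at 1.06 ± 0.19. The 4 negative genes were Elovl6 at -0.30 ± 0.40, Scd1 at -0.20 ± 0.90, Srebf1 at -0.12 ± 0.27 and Ebp at -0.09 ± 0.35. Among the sterol enzymes the lowest after Ebp were Pmvk at 0.45 ± 0.23 and Dhcr7 at 0.49 ± 0.21. The 8 from Fdft1 to Mvk share an adjusted p of 0.485 in limma. By role, 5 of 6 mevalonate genes and 8 of 11 squalene and sterol genes had an unadjusted p under 0.05, with medians of 0.99 and 1.03. The same held for 1 of 6 regulators and 1 of 6 fatty acid genes, with medians of 0.55 and 0.42. This fit takes the spread of a lone control to equal that of the replicated groups. Its p-values rest on the spread among the OVA mice of each sex, and no spread between control mice of a sex could be measured. Nothing in the labels says how the mice were housed or sampled.

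**Figure D3:**
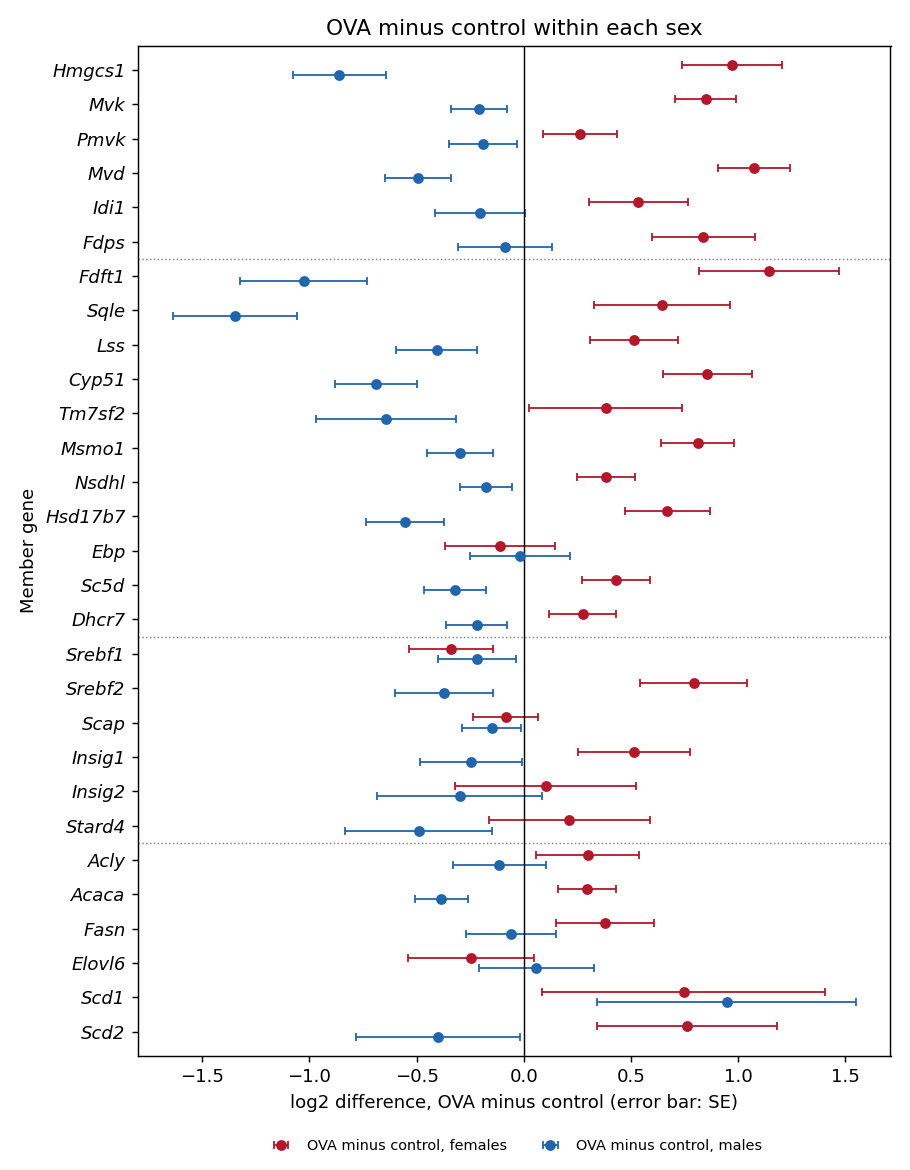
OVA minus control within females (red) and within males (blue) for each gene, as the log2 difference with its SE from the fit of 4 group means, with dotted lines between the roles. The red point is right of 0 in 25 of 29 genes and the blue point is left of 0 in 27 of 29.

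Within females, OVA mice were higher in 25 of 29 genes, against 56.2% of all genes, with a median of 0.51. Of the 29, 12 had an unadjusted p under 0.05 on the higher side, against 6.26% of all genes, and 0 on the lower side, against 3.59%. Within males, OVA mice were lower in 27 of 29 and higher in 2, where 51.3% of all genes were higher, and the median was -0.30. Here 7 had an unadjusted p under 0.05 on the lower side, against 3.98% of all genes, and 0 on the higher side, against 3.45%. No gene passed adjustment in either sex, as was the case for 0% of all genes, with smallest adjusted p in limma of 0.261 in females and 0.466 in males. By the brightest probe set, all 17 measured sterol enzymes were lower in male OVA mice, with a median of -0.32. In female OVA mice 16 of 17 were higher, with a median of 0.65. A further probe set was higher in male OVA mice for Idi1 (0.21) and for Sc5d (0.07). The 2 genes not lower in male OVA mice by their brightest probe set were Scd1 and Elovl6.

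The same pattern can be read from the order of the arrays. In 14 of 29 genes the 2 female OVA mice and the male control all lay above the other 5 arrays, against 2.6% of all genes, and the opposite order was found in 0, against 2.82%. Both female OVA mice lay above the female control in 24 genes, against 42.5%, and below it in 3, against 32.2%. All male OVA mice lay below the male control in 19 genes, against 23.7%, and above it in 1, Scd1, against 23.9%. Both orders together were found in 18 genes, against 7.78%. Since 1 array serves as the only control of each sex and the genes of the list vary together, these counts repeat the reading of 2 control arrays many times over. The mean over the 17 sterol enzymes, relative to its mean over the arrays, was 0.23 and 0.37 in female OVA mice against -0.32 in the female control, and -0.15, -0.25, -0.22 and 0.03 in male OVA mice against 0.31 in the male control. Female OVA 12 was the highest array for 8 of the 17 enzymes and the male control for 6, while the female control and male OVA 5 were each the lowest for 6.

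A comparison of the OVA mice alone uses neither control. Female OVA mice lay above all male OVA mice in 16 of 29 genes, against 7.33% of all genes, and below all of them in 0, against 10.9%. The difference, female OVA minus male OVA, was positive in 26 of 29, against 50.9% of all genes. Its median was 0.30, and 0.43 for the sterol enzymes, against 0.004 for all genes. An unadjusted p under 0.05 was found for 14 genes on the higher side, against 3% of all genes, and for 0 on the lower side, against 6.26%. Cyp51 was furthest apart for its spread, at 0.84 ± 0.15 (SE, adjusted p = 0.198 in limma), and 0 of 29 passed adjustment, against 0.0501% of all genes. Between the 2 saline mice, the female control read below the male control for Hmgcs1, Mvd, Fdft1, Sqle and Cyp51, and this difference was not tested.

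All OVA mice against both controls showed little difference in these genes. With sex as a covariate, 18 of 29 genes were higher in OVA mice, against 53.7% of all genes, with a median of 0.01 against 0.02 for all genes. None had an unadjusted p under 0.05 in limma, where 6.39% of all genes did on the higher side and 3.82% on the lower, and 0 passed adjustment, as did 0% of all genes. In 0 of 29 genes did all OVA mice lie above both controls, against 7.99%, and in 0 below both, against 4.65%. The gene furthest apart among the mevalonate enzymes was Fdps, at 0.33 ± 0.22 (SE, n = 6 OVA and 2 control mice, adjusted p = 0.559 in limma), and among the later enzymes Sqle, at -0.44 ± 0.39 (SE, adjusted p = 0.659 in limma). Females against males, with treatment as a covariate, gave 22 of 29 higher, against 46% of all genes, and a median of 0.12. There too 0 genes had an unadjusted p under 0.05 on the higher side, against 1.16% of all genes, or on the lower side, against 4.16%, and 0 passed adjustment, against 0.0417% of all genes. The OVA median turned with the control left out: without the female control 7 it was -0.30, and without the male control 8 it was 0.51.

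The regulators divided. Srebf2 read 117 and 165 in female OVA mice against 78.3 in the female control, and 93.3, 81.4, 113 and 88.8 in male OVA mice against 122 in the male control. It thus kept the order of the enzymes, with a crossed difference of 1.17 ± 0.34 (SE, adjusted p = 0.518 in limma). Srebf1, the gene of the other SREBP, read 234 and 212 in female OVA mice against 283 in the female control, and 238, 238, 205 and 285 in male OVA mice against 279.6 in the male control. It was lower in OVA mice of both sexes apart from male OVA 13, with an additive difference of -0.27 ± 0.13 (SE, adjusted p = 0.468 in limma). Scap, the escort of the SREBP proteins, varied least of all 29 genes, with 161 and 188 in female OVA mice against 185 in the female control, and 159 to 179 in male OVA mice against 189.5 in the male control. Insig1, itself a known SREBP target, read 94.5 and 119.5 in female OVA mice against 72.9 in the female control. In male OVA mice it read 71.2, 98.2, 100.3 and 110.1 against 112 in the male control, so male OVA 13 came close to the control. Insig2, the related retention protein, and Stard4, which moves cholesterol between membranes, were lowest in male OVA 8 by their brightest probe sets, at 109.7 and 196. The other Insig2 probe sets were lowest in male OVA 5, at 119.8, and in male OVA 1, at 44.0. In female OVA mice Insig2 read 220.1 and 181 against 186 in the female control, and Stard4 read 401 and 347 against 321.

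**Figure D4:**
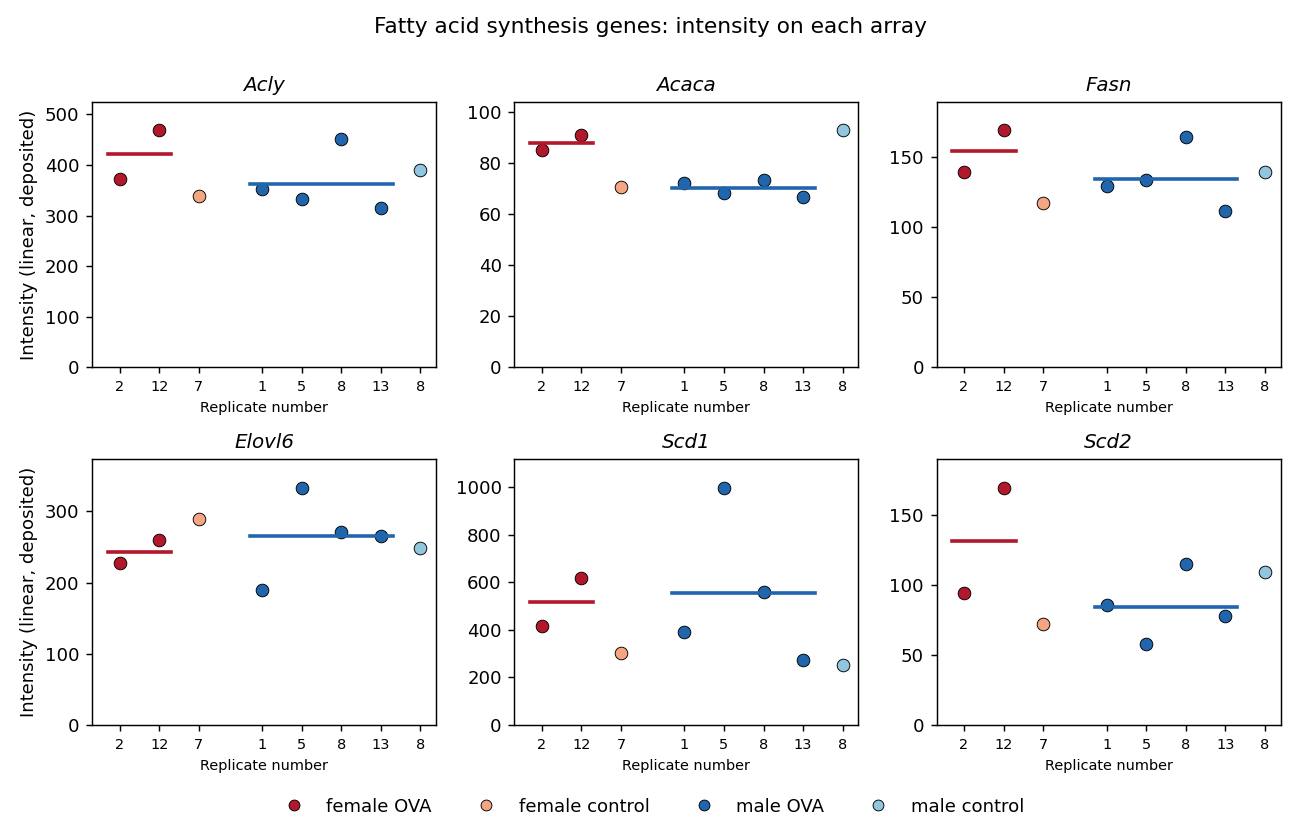
Deposited intensity (linear axis from 0) of the 6 fatty acid synthesis genes on each array, by group and replicate number, with a bar at the mean of the OVA mice of each sex. Acaca follows the sterol genes, while Scd1, by its brightest probe set, is highest in male OVA 5, at 998.

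The fatty acid genes followed the sterol genes in part. Acaca, the carboxylase that commits acetyl-CoA to fatty acids, read 85.0 and 90.9 in female OVA mice against 70.7 in the female control, and 72.1, 68.2, 73.4 and 66.7 in male OVA mice against 93.0 in the male control. Its female OVA mice lay above and its male OVA mice below the single control of their sex, an order found in 7.78% of all genes. Its crossed difference was 0.68 ± 0.18 (SE), not past adjustment. Acly, which supplies acetyl-CoA in the cytosol, read 373 and 469 in female OVA mice against 339 in the female control, and 352, 332, 450.4 and 316 in male OVA mice against 389 in the male control. Fasn, the fatty acid synthase, read 139 and 169 in female OVA mice against 117 in the female control, and 129, 134, 164 and 112 in male OVA mice against 139 in the male control. For both, male OVA 8 stood above the male control. Scd2, a desaturase, read 94.0 and 169 in female OVA mice against 72.4 in the female control, and 85.5, 57.9, 115 and 77.9 in male OVA mice against 109 in the male control. Its crossed difference was 1.16 ± 0.57 (SE), and male OVA 8 lay above the male control.

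Scd1, the main desaturase of liver and fat, went its own way. It read 418 and 619 in female OVA mice against 301 in the female control, and 392, 998, 559 and 272 in male OVA mice against 254 in the male control. All OVA mice lay above the control of their own sex, with an additive difference of 0.86 ± 0.41 (SE, adjusted p = 0.472 in limma). By this probe set, the brightest, the highest value was in male OVA 5. The other Scd1 probe set past the filter was highest in female OVA 12, at 57.8. It read 48.5 in male OVA 8 and 37.5 in male OVA 5. Male OVA 5 also stood apart in some adipocyte markers. There Adipoq, the adipokine adiponectin, read 185, against 2.99 to 3.58 on the other 7 arrays, and Fabp4, the fatty acid binding protein of fat cells, read 1103, against 187 to 281. The summed adipocyte markers, 6 of 8 with a probe set and 4 past the filter, came to 1546 in male OVA 5, 307 to 490 in the other OVA mice, and 452 in the female and 376 in the male control. Fabp4 made up most of the sum in male OVA 5. Cidec and Plin4 were also highest there, at 138 and 29.8, against 34.8 to 109 and 13.5 to 16.1 on the other arrays. Lipe was not, at 85.4 in male OVA 5 against 95.9 in the female and 90.9 in the male control. Lep was at 3.81 to 6.03 on all arrays, under the filter at 11.9. The part of fat tissue in the Scd1 values was not tested. Elovl6, which lengthens fatty acids, read 227 and 259 in female OVA mice against 289 in the female control. In male OVA mice it read 189, 333, 271 and 266 against 249 in the male control. By this probe set it was also highest in male OVA 5. The other Elovl6 probe set past the filter was highest in male OVA 8, at 123, against 114 in male OVA 5.

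Several probe sets of a gene mostly told the same in the crossed difference. Of the 15 genes with several probe sets past the filter, 14 had 1 sign for all of them in the crossed difference, and Scd1 had both. Of the 51 probe sets, 46 were positive. The 4 probe sets of Hmgcs1 ran from 1.18 to 1.83, and the pair for Fdft1 gave 2.17 and 2.36. The probe sets that stand for Fdft1, Lss and Hsd17b7 are of types that can also bind related transcripts, and each of these genes had a further probe set of the same sign. Within each sex some further probe sets differed in sign from the brightest one. In males their OVA minus control was 0.21 for Idi1, 0.07 for Sc5d, 0.23 and 0.05 for Acly, and -0.15 for Elovl6. In females it was -0.18 and -0.04 for Insig2 and -0.01 for Stard4.

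**Figure D5:**
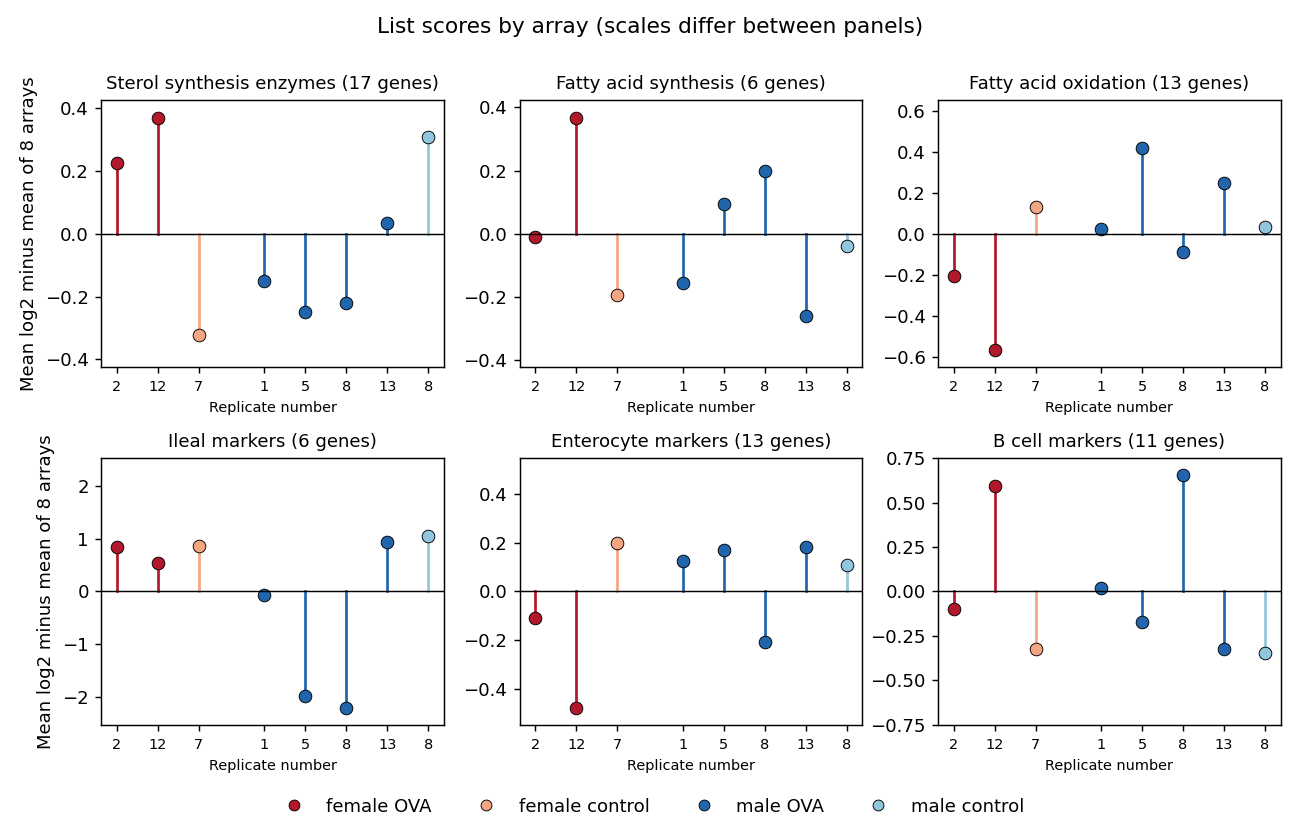
Mean log2 intensity of 6 gene lists on each array relative to its mean over the 8 arrays, by group and replicate number. The vertical scales differ. The sterol enzymes stand at 0.23 and 0.37 in female OVA mice against -0.32 in the female control, and the ileal markers at 0.84 and 0.54 against 0.87. In male OVA mice the sterol enzymes stand at -0.15, -0.25, -0.22 and 0.03 against 0.31 in the male control. The ileal markers there stand at -0.06, -1.97, -2.19 and 0.93 against 1.05.

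The cell makeup of the patches also varied between arrays, and in bulk RNA fewer cells of a type and less RNA per cell cannot be told apart. The enterocyte score over 13 of 14 markers was -0.11 and -0.48 in female OVA mice against 0.20 in the female control, and 0.13, 0.17, -0.21 and 0.18 in male OVA mice against 0.11 in the male control. The B cell score over 11 of 12 markers was -0.10 and 0.59 in female OVA mice against -0.32 in the female control, and 0.02, -0.17, 0.65 and -0.33 in male OVA mice against -0.35 in the male control. Female OVA 12 and male OVA 8 thus had the 2 lowest enterocyte and the 2 highest B cell scores. The sterol score was 0.37 in female OVA 12 and -0.22 in male OVA 8. The part of enterocytes and B cells in the sterol values was not tested. Summed enterocyte markers came to 32729 to 50025 in OVA mice, and to 49146 in the female and 42834 in the male control. Summed B cell markers came to 3484 to 7300.0 in OVA mice, and to 3705 in the female and 3412 in the male control. Crypt and goblet cell markers also tended to read lower in male OVA mice, with 0 past adjustment. Within males, 7 of 8 crypt markers were lower, 4 of them under an unadjusted 0.05 against 3.98% of all genes, with a median of -0.39, and 7 of 7 goblet markers were lower, 1 under 0.05, with a median of -0.38. In the crossed difference 7 of 8 crypt markers were positive, with a median of 0.31, and 6 of 7 goblet markers, with a median of 0.28. The crypt score was 0.04 and -0.04 in female OVA mice against 0.06 in the female control, and -0.12, -0.07, -0.20 and 0.03 in male OVA mice against 0.29 in the male control. The goblet score was 0.06 and -0.04 in female OVA mice against 0.12 in the female control, and -0.06, -0.05, -0.55 and 0.20 in male OVA mice against 0.31 in the male control. Both scores thus had the control highest in each sex, and the sterol score had it lowest in females and highest in males. Summed crypt markers came to 1930.3 to 2265 in OVA mice, and to 2438 in the female and 2469 in the male control, and summed goblet markers to 13795 to 21055, and to 20007 and 22317 in the same controls. Their part in the sterol values was not tested. With the enterocyte score as a covariate the median crossed difference was 0.66, and with the B cell score 0.78.

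Markers of the ileum, the last stretch of the small intestine, differed within the male OVA mice. The bile acid binding protein gene Fabp6 read 2189 and 2828 in female OVA mice against 2974 in the female control, and 1474, 21.2, 21.7 and 3162 in male OVA mice against 3297 in the male control. The ileal score over 6 of 7 markers was 0.84 and 0.54 in female OVA mice against 0.87 in the female control, and -0.06, -1.97, -2.19 and 0.93 in male OVA mice against 1.05 in the male control. The ileal score thus had the control highest in each sex. The score of 7 markers of the proximal small intestine was -1.05 and -0.99 in female OVA mice against 0.09 in the female control, and -0.32, 1.11, 0.35 and 0.97 in male OVA mice against -0.16 in the male control. The proximal score thus had the control highest in females and above only male OVA 1 in males. The sterol score had the control lowest in females and highest in males. In the crossed difference all 7 proximal markers were negative, with a median of -0.99. The part of gut region in the sterol values was not tested. Without male OVA 5 and 8 together the median crossed difference of the synthesis genes was 0.72. With the ileal score as a covariate it was 0.69, and the proximal score was not used as a covariate. The summed exocrine pancreas markers came to 8234 in male OVA 13 and to 73.4 to 481 on the other arrays. The part of pancreas tissue in the sterol values was not tested.

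Other genes of sterol and SREBP biology, from a list of 27 of which 21 had a probe set past the filter, had a median crossed difference of 0.07, near the 0.05 of all genes, with 13 of 21 positive, near the 55.7% of all genes. An unadjusted p under 0.05 was found for 1 of 21, near the 4.18% of all genes on the positive side, and 0 passed adjustment. That gene was Elovl5, which lengthens polyunsaturated fatty acids, at a crossed difference of 0.68 ± 0.25 (SE, adjusted p = 0.561 in limma). It read 811 and 1069 in female OVA mice against 837 in the female control, and 749.8 to 826 in male OVA mice against 1133 in the male control. For OVA against control, Ggps1, which makes geranylgeranyl pyrophosphate, was at 0.41 ± 0.11 (SE, adjusted p = 0.375 in limma), and Fads2, a fatty acid desaturase, at -0.37 ± 0.10 (SE, adjusted p = 0.38 in limma). Ggps1 read 68.6 and 80.2 in female OVA mice against 48.7 in the female control, and 60.9 to 68.0 in male OVA mice against 52.8 in the male control, so all OVA mice lay above both controls. Tmem97 stood at 0.27 ± 0.14 (SE). For females against males, Acss2, which makes acetyl-CoA from acetate, was at -0.37 ± 0.12, Me1, a source of NADPH, at -0.61 ± 0.25, and Acacb at -0.26 ± 0.11 (SE each), none past adjustment.

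Genes of cholesterol uptake, efflux and LXR control were mostly negative in the crossed difference. Of 17 listed, 14 were measured, 11 of them negative, where 55.7% of all genes were positive, with a median of -0.43. An unadjusted p under 0.05 was found for 1 of the 14, close to the 2.91% of all genes on the negative side, and 0 passed adjustment. Enterocyte markers also had a negative median, -0.61, with 10 of 13 negative and 5 of these under an unadjusted 0.05, and the proximal markers, which share Lct with them, had 7 of 7 negative and a median of -0.99. Abcg5 and Abcg8 are themselves enterocyte genes, and the part of cell makeup in these values was not tested. The 1 uptake and efflux gene under 0.05 was Lipa, the lysosomal lipase that frees cholesterol from its esters. Lipa had a crossed difference of -0.88 ± 0.30 (SE), not past adjustment. It read 272 and 231 in female OVA mice against 367 in the female control, and 332, 476, 364 and 393 in male OVA mice against 304 in the male control. Abcg5, a subunit of the pump that returns sterols to the gut lumen, read 715 and 549.8 in female OVA mice against 1518 in the female control. In male OVA mice it read 869, 1125, 735 and 1367 against 1238 in the male control, and its additive OVA difference was -0.75 ± 0.28 (SE, adjusted p = 0.412 in limma). Its partner Abcg8 was at -0.54 ± 0.28, and Npc1, the lysosomal cholesterol exporter, at 0.29 ± 0.15 (SE each). For females against males, Lipa was at -0.38 ± 0.19, Mylip at 0.23 ± 0.12 and Scarb1 at -0.36 ± 0.22 (SE each), none past adjustment.

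Fatty acid oxidation genes and PPARA targets were lower in the female OVA mice. Of 15 listed, 13 were measured, and all 13 were lower within females, where 56.2% of all genes were higher. Of them 4 were under an unadjusted 0.05, against 3.59% of all genes on the lower side, and 0 passed adjustment. Within males 7 of 13 were lower. The median crossed difference was -0.61, with 12 of 13 negative, where 55.7% of all genes were positive, and 2 of them under an unadjusted 0.05, against 2.91% of all genes on that side. For the crossed difference Acadl, an acyl-CoA dehydrogenase, was at -0.70 ± 0.23 and Cd36, a fatty acid uptake receptor, at -1.27 ± 0.48 (SE each). Cd36 read 138 and 96.2 in female OVA mice against 239 in the female control, and 242, 356, 204 and 208 in male OVA mice against 206 in the male control. For OVA against control, Hadha of the mitochondrial trifunctional protein was at -0.31 ± 0.12, Cpt2 at -0.32 ± 0.18 and Cpt1a at -0.22 ± 0.13 (SE each). For females against males, Cpt2 was at -0.46 ± 0.16, Hadha at -0.27 ± 0.10 and Cd36 at -0.72 ± 0.28 (SE each). These genes are strongly expressed in enterocytes, whose score was also lowest in female OVA 12, and the part of cell makeup was not tested.

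The oxysterol system guides B and T cells in lymphoid tissue, with a sterol made by Ch25h and Cyp7b1, removed by Hsd3b7 and sensed by Gpr183. All 4 genes were measured and 0 passed adjustment. Gpr183 read 164 and 276 in female OVA mice against 135 in the female control, and 170.4, 160.3, 243 and 118 in male OVA mice against 101 in the male control. Its additive OVA difference was 0.67 ± 0.26 (SE, adjusted p = 0.419 in limma), and its highest values were in female OVA 12 and male OVA 8, the arrays with the highest B cell score. Ch25h was at 0.11 ± 0.16 and Hsd3b7 at -0.04 ± 0.12 (SE each), and for females against males Hsd3b7 was at -0.24 ± 0.11, Gpr183 at 0.35 ± 0.24 and Ch25h at -0.15 ± 0.14 (SE each).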

How the data were processed

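Single-colour Affymetrix arrays were read from total RNA of Peyer's patches. The deposited table gives linear intensities of probe sets, which the authors made with MAS5 per the submitters' processing notes; version and settings were not given in the sources used here. Identical intensities on 2 or more arrays occurred for 23217 probe sets, and trimmed means were unequal, which leaves the probe summarisation method uncertain. Intensities ran from 1.86 to 14749, and the trimmed means from 65.1 to 68.2. The number of arrays limits the precision.

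Samples were grouped by the sex and treatment in the labels. Intensities were put on the scale log2(value + 4.88), where 4.88 is their 25th percentile, and not rescaled. The 64 AFFX probe sets were left out, and the 22518 probe sets above the median (an intensity of 11.9) were tested. Probe sets naming several genes (932) or none (9211) name no gene here. The brightest probe set that passed stands for its gene. Two-sided tests used limma 3.58.1 (lmFit, eBayes; R 4.3.3), with Benjamini-Hochberg adjustment over all tested probe sets and a threshold of 0.05. An additive fit gave OVA against control and female against male (5 residual degrees of freedom). The within-sex differences and the crossed difference came from 4 group means (4 residual degrees of freedom). The OVA mice alone were compared in a separate fit of the 6 OVA arrays, with sex as its only term. Scores are mean log2 intensities over the genes of a list past the filter.

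All 30 genes and the pathway lists were chosen with earlier results of these data known. The lists of ileal, proximal gut and pancreas markers were added after values were seen. Values on every array are given for the genes with the smallest p per contrast, up to 8, for the largest OVA difference of each role, and for others added afterwards, and from each pathway list the 3 genes of smallest p for OVA and for sex are named.

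The fits were tested on simulated data. Alternatives covered the pseudocount, filter, normalization, variance, weights, probe sets, cell makeup scores and left-out arrays. Promoters were searched in Python 3.11.15 with pandas 2.3.3, and figures drawn with matplotlib 3.10.9.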

Additional observations from a re-analysis of the deposited data

Results flagged for a closer look

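In 18 of 29 genes both female OVA mice lay above the female control and all male OVA mice lay below the male control. Of all genes, 7.78% had this order. The crossed difference, OVA minus control in females less the same in males, was 2.17 for Fdft1, 1.99 for Sqle, 1.83 for Hmgcs1, 1.57 for Mvd, 1.55 for Cyp51, 1.23 for Hsd17b7, 1.17 for Srebf2, 1.11 for Msmo1 and 1.06 for Mvk on the log2 scale. It was 1.03 for Tm7sf2, 0.921 for Lss, 0.76 for Insig1, 0.752 for Sc5d, 0.701 for Stard4, 0.68 for Acaca, 0.562 for Nsdhl, 0.495 for Dhcr7 and 0.453 for Pmvk. This difference was tested with limma, and none of the 18 passed adjustment over all probe sets (smallest adjusted p = 0.485). Each sex had 1 control mouse, so all 18 rest on the same 2 control arrays.

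Mvk in male OVA 8 lay below the other male OVA mice, at 41.0 against 46.8 to 47.7, with a gap of 0.869 of the group's range on the log2 scale. A gap this wide arises by chance in about 1 in 20 groups. All 29 genes were scanned among the male OVA mice and again among all OVA mice, so a few such gaps can arise by chance. No other gap was flagged.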

How the results depend on the processing

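The median crossed difference was 0.75. It was 0.85 with array weights and 0.66 with the enterocyte score as a covariate, an alternative added after seeing the data, like all those for this contrast except the pseudocount of 1, quantile normalization and no filter. It ran from 0.72 to 0.83 with each OVA array left out. The smallest adjusted p of any of the 29 genes over these alternatives was 0.161. Signs turned for Ebp (0.20), Srebf1 (0.17) and Acly (-0.074) with the enterocyte score, for Insig2 (-0.11) and Scd1 (0.59) with the ileal score, for Ebp (0.0057) and Scd1 (0.08) without female OVA 2, for Scap (-0.045) without female OVA 12, and for Scd1 without male OVA 5 (0.13) and without male OVA 5 and 8 (0.39). With each OVA array left out Ebp ran from -0.22 to 0.0057, Scap from -0.045 to 0.17 and Scd1 from -0.49 to 0.13.

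For OVA against control the count of genes under an unadjusted 0.05 was 0, and 1 with no filter, with the mean of all probe sets and with the enterocyte score. The median was 0.51 within females and -0.30 within males. Leaving out each array gave medians of -0.30 to 0.51. The extremes came without the female control 7 and without the male control 8, since these leave the contrast of the other sex. Sqle ran from -1.35 to 0.65 and Fdps from -0.086 to 0.84, with the sign turned for Sqle within females and for Fdps within males. For females against males the count was 6 with array weights. In the OVA mice alone it was 14, all higher in females, against 3% of all genes on that side. With each array left out the medians ran from -0.04 to 0.30. The share of all genes under 0.05 was not worked out for array weights, covariates, no filter or the mean of all probe sets. Srebf2 (-0.14) and Scd2 (-0.23) turned with the enterocyte score and without female OVA 12, and ran from -0.048 to 0.55 and from -0.10 to 0.60 with each array left out. Where no cause is named, the cause was not tested. No paired analysis was possible because control and OVA mice of a sex share at most the replicate number 8, and nothing says that it marks a shared litter or day.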
